A study of Danio rerio with 6 samples.

Results

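The genes lcat, soat1 and soat2 encode the zebrafish enzymes that join a fatty acid to cholesterol or another sterol, and their transcripts were followed in embryos with and without a nonsense mutation in dgat2, the gene of a diacylglycerol acyltransferase that makes triacylglycerol. They were taken by name (ENSDARG00000099424 for lcat, ENSDARG00000062297 for soat1 and ENSDARG00000059824 for soat2) and are 3 of the 32520 genes in the count table, and all 3 had enough counts to be tested among 22762 genes. The choice was made with the genotype difference of these genes known, so their mutant and wild-type values are given as a description, with no test. RNA was measured in 6 pools of trimmed mid-sections at 3 dpf, 1 mutant and 1 wild-type pool from each of clutches 2, 3 and 4, with 6 embryos in every pool. Mutant pools held embryos homozygous for dgat2 sa13945, a nonsense allele from chemical mutagenesis that leaves the transcript in place and might still yield some working enzyme, and wild-type pools held their wild-type siblings. Both came from the same in-crosses of heterozygous parents, without further treatment, and mutants were picked by their opaque yolk and then genotyped. What was sequenced was largely the yolk sac with its yolk syncytial layer (YSL), a nucleated layer that takes up yolk lipid and exports it in lipoproteins, together with the dorsal musculature, so levels are averages over a mixture of tissues.

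Vertebrates esterify cholesterol by 2 routes. Soat1 and Soat2, also called ACAT1 and ACAT2, sit in the endoplasmic reticulum and use acyl-CoA, and their products are stored in lipid droplets or packed into ApoB lipoproteins. Like Dgat1, and unlike Dgat2, they are membrane-bound O-acyltransferases (MBOAT enzymes). Lcat is instead a secreted plasma enzyme which moves an acyl chain from phosphatidylcholine to cholesterol on high-density lipoprotein (HDL), with apolipoproteins of the ApoA and ApoE kind as carriers and activators. In mammals LCAT is made mainly by the liver, SOAT2 by enterocytes and hepatocytes, and SOAT1 by most tissues, including macrophages and steroid-producing cells.

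The libraries held 45958694 to 59166585 estimated counts, and each mutant library was deeper than each wild-type library. Fast muscle and YSL markers, which define the labelled tissues, were present in every pool, with summed levels of 34828 to 39119 TPM and 5497 to 9500 TPM. The dgat2 count was 1149, 514 and 1270 in mutants of clutches 2, 3 and 4, and 1328, 783 and 209 in wild types. The transcript was thus not lost and gives no check of the genotype labels. In the quasi-likelihood fit of edgeR, with p-values adjusted by Benjamini and Hochberg's method, 3 genes, or 0.0132% of those tested, were called, all of them higher in mutants. With the clutch as a block, 0.272% were called as higher. At an unadjusted p under 0.05, 3.21% were higher and 1.99% lower. The median log2 fold change over all tested genes was -0.01. Pools of one clutch came from separate embryos, and the p-values measure the spread between these pools.

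Of the 3 genes, lcat was the most abundant transcript in every pool. Levels of different genes were set side by side in transcripts per 1000000 (TPM), which is scaled for transcript length. The lcat level was 8.36, 4.61 and 3.57 TPM in the wild-type pools of clutches 2, 3 and 4, and 16.7, 9.63 and 11.8 TPM in the corresponding mutant pools. The mean wild-type level, 5.52 ± 2.52 TPM (SD, n = 3), was above that of 60.7% of tested genes. For soat1 the levels were 2.91, 1.35 and 1.35 TPM in wild types and 4.33, 1.71 and 2.99 TPM in mutants. For soat2 they were 2.97, 1.74 and 1.42 TPM in wild types and 3.22, 2.70 and 4.15 TPM in mutants. Both Soat transcripts were thus scarce, with mean wild-type levels of 1.87 ± 0.899 TPM for soat1 and 2.04 ± 0.816 TPM for soat2 (SD, n = 3), above those of 34.6% and 36.5% of tested genes.

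The order of these levels was tested within pools, over both genotypes. The lcat level exceeded that of soat1 in 6 of 6 pools, by 1.80 ± 0.39 on the log2(TPM + 0.1) scale (SD), a 3.49-fold difference (exact two-sided sign-flip permutation test, p = 0.03125, adjusted over the 3 pairs p = 0.0469). It exceeded that of soat2 in 6 of 6 pools as well, by 1.62 ± 0.40 or 3.07-fold (same exact test, p = 0.03125, adjusted p = 0.0469). Both folds and both p-values take in the mutant pools, whose difference from wild types was known when the genes were chosen. The p-values are therefore not independent of that choice, and the order in wild types alone was not tested. In wild types alone the TPM of lcat was 2.64 to 3.41 times that of soat1 and 2.51 to 2.82 times that of soat2. With 6 pools 0.03125 is the smallest p this test can give. It takes the pools as independent although they come from 3 clutches, and over the 3 clutch means, a test added after seeing the data, the exact permutation p was 0.25 for both differences (adjusted p = 0.375), the smallest that 3 clutches allow, so the call was lost there. The levels of soat1 and soat2 were not told apart: soat1 was the higher of the pair in 1 of 6 pools, and the mean log2 difference of soat1 minus soat2 was -0.18 ± 0.37 (SD, exact permutation test, p = 0.25). Pool by pool the log2 difference in TPM, without the 0.1 added, ran from -0.66 to 0.43. Without any 1 pool the differences between lcat and the other genes were 1.48 to 1.90, and with 5 pools the exact permutation test can give no p under 0.0625.

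**Figure D1:**
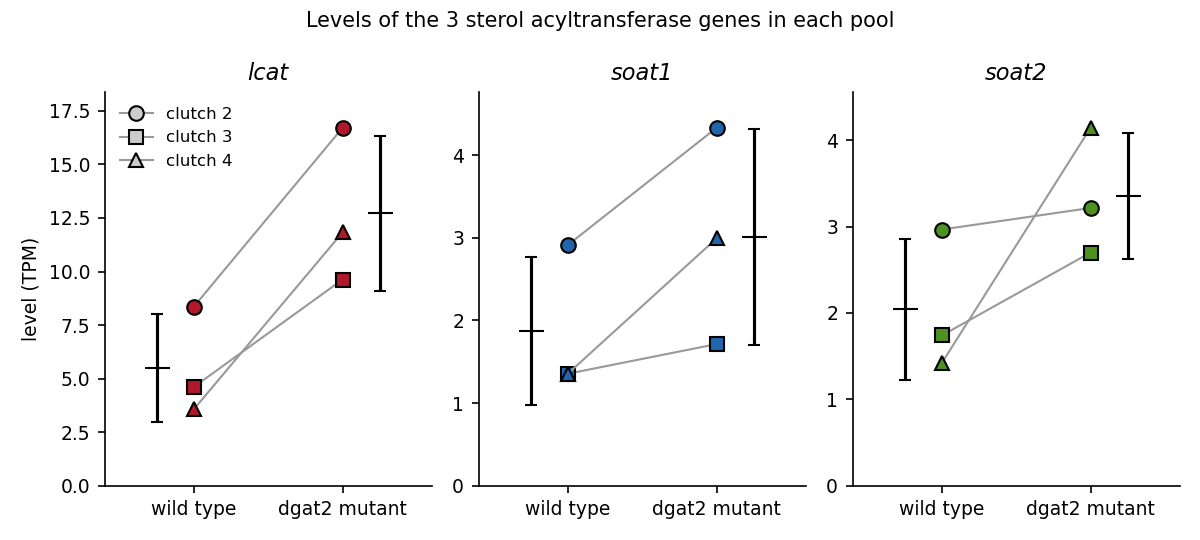
Level of lcat, soat1 and soat2 in TPM (vertical axes, starting at 0 and differing between panels) in wild-type and dgat2 mutant pools; each symbol is 1 pool, grey lines join pools of the same clutch, and bars show the mean ± SD of 3 pools. The lcat mutant pools (9.63 to 16.7 TPM) lie above the wild-type pools (3.57 to 8.36 TPM), whereas the ranges of soat1 and of soat2 overlap between genotypes.

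In dgat2 mutants the lcat transcript was at about double its wild-type level or more in each clutch. In counts per 1000000 (CPM), which take out library depth, lcat was at 9.19, 5.67 and 4.63 in the wild-type pools of clutches 2, 3 and 4 and at 20.8, 12.6 and 13.2 in the mutant pools. The genotypes did not overlap, and the lowest mutant pool was 1.37 times the highest wild-type pool (1.15 times in TPM). The mean was 15.5 ± 4.56 CPM in mutants and 6.49 ± 2.39 CPM in wild types (SD, n = 3). Within clutches the mutant to wild-type CPM ratio was 2.26, 2.21 and 2.86, so clutches 2 and 3 gave nearly the same ratio although their levels differed. In TPM the log2 difference was 0.999, 1.06 and 1.73. The fitted log2 fold change was 1.26 (SE 0.29), and with the clutch as a block 1.28 (SE 0.13). Without the mutant pool of clutch 2 it was 0.99, and without the wild-type pool of that clutch 1.59. Among all tested genes, 176, lcat included, had a log2 fold change at least as high as that of lcat. In CPM 74 genes, or 0.325%, were at least doubled in every clutch, lcat among them. In TPM the lcat difference in clutch 2 fell just short of doubling. Since lcat was chosen with this contrast known, nothing is read from these counts. In a bulk sample, a larger share of cells that make a transcript and more of it per cell cannot be told apart.

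The soat1 transcript, from the more widely expressed of the intracellular enzymes, varied between clutches as well as between genotypes. It was at 5.73, 2.99 and 3.15 CPM in the wild-type pools of clutches 2, 3 and 4 and at 9.64, 4.00 and 5.99 CPM in the mutant pools. The ranges overlapped, since wild types of clutch 2 lay above mutants of clutch 3, but within each clutch the mutant pool was the higher one, with CPM ratios of 1.68, 1.34 and 1.90. The log2 fold change was 0.73 (SE 0.36), or 0.71 (SE 0.16) with the clutch as a block. This value depended on clutch 2, and was 0.34 without its mutant pool and 1.09 without its wild-type pool.

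The soat2 transcript, from the enzyme that in mammals supplies cholesterol esters for lipoprotein export, differed least between genotypes in clutch 2 and most in clutch 4. It was at 6.05, 3.77 and 3.00 CPM in the wild-type pools of clutches 2, 3 and 4 and at 7.19, 5.84 and 8.42 CPM in the mutant pools. As for soat1, 1 pair of pools crossed. The mutants of clutch 3 were at 0.965 times the wild types of clutch 2, and for soat1 at 0.699 times. Within clutches the CPM ratio was 1.19, 1.55 and 2.81, so that clutch 4 reached nearly the ratio seen for lcat there. The log2 fold change was 0.74 (SE 0.27), or 0.78 (SE 0.24) with the clutch as a block, and it was 0.54 to 1.08 when any 1 pool was left out. The lowest value, 0.54, was that without the wild-type pool of clutch 4, and the lcat value without this pool was 1.06. This pool also had the lowest YSL marker sum, 5497 TPM against 9500 and 9374 TPM in wild types of clutches 2 and 3. Its dgat2 count, 209, and its summed hepatocyte and enterocyte markers, 1743 and 887 TPM, were the lowest of the 6 pools as well.

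Of the 3 genes, 3 were higher in the mutant pool of every clutch, as were 14.6% of tested genes, and 1, lcat, had every mutant pool above every wild-type pool, as had 5.14% of tested genes. Since the genes were chosen with this contrast known, nothing is read from these counts. Mutant pools as a group had more of all 3 transcripts, and more so for lcat, so its share of their summed level was larger. The sum was 14.2, 7.71 and 6.35 TPM in wild types of clutches 2, 3 and 4 and 24.3, 14.0 and 19.0 TPM in mutants. Of this sum lcat made up 58.7%, 59.9% and 56.3% in wild types and 68.9%, 68.6% and 62.4% in mutants, with no overlap between genotypes. The lcat to soat1 ratio of TPM likewise did not overlap (2.64 to 3.41 in wild types and 3.86 to 5.62 in mutants), nor did the lcat to soat2 ratio (2.51 to 2.82 and 2.85 to 5.20). The last gap was narrow, and in mutants of clutches 2, 3 and 4 the lcat to soat2 ratio was spread over 5.20, 3.57 and 2.85. These shares and ratios restate the genotype differences with which the genes were chosen, and were not set beside those of other genes. Nothing is read from their lack of overlap.

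**Figure D2:**
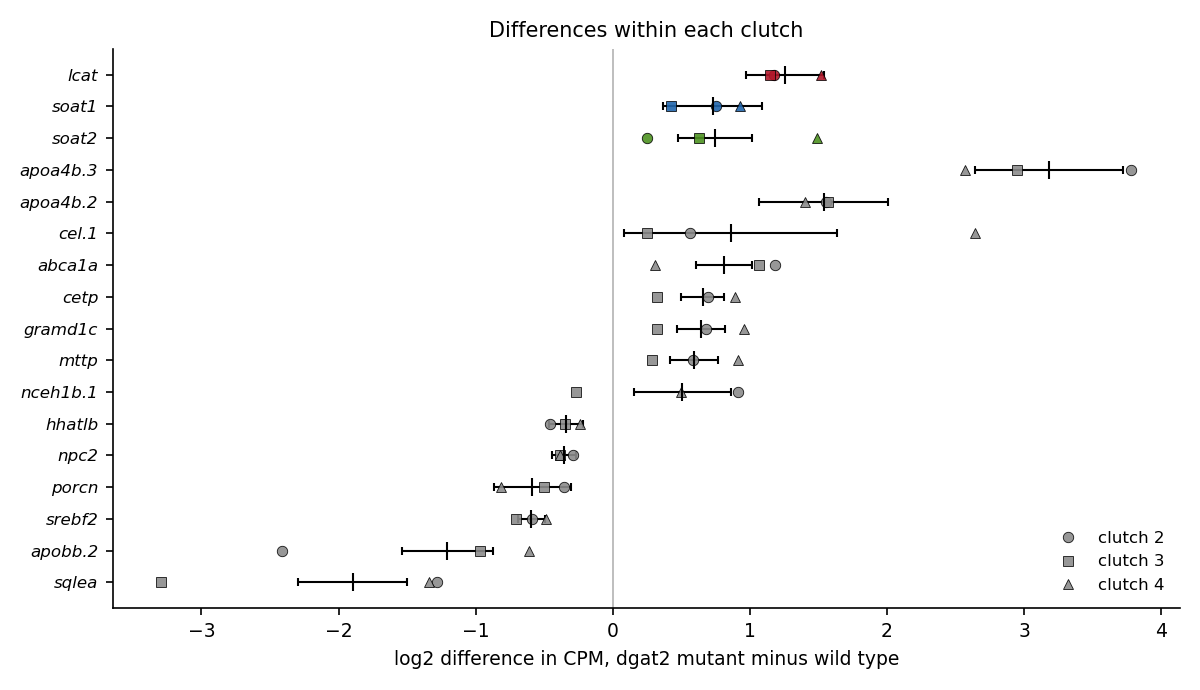
Log2 difference in CPM between the dgat2 mutant and the wild-type pool (horizontal axis) within clutches 2, 3 and 4 (symbols) for lcat, soat1, soat2 and the named pathway genes; the black tick and bar give the edgeR log2 fold change over all 6 pools ± SE. The lcat symbols lie close together at 1.15 to 1.51, while those of soat2 spread from 0.25 to 1.49.

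Clutch 2 had the highest level of all 3 genes among wild types, and of lcat and soat1 among mutants. The exception was soat2 in mutants, which went from 7.19 CPM in clutch 2 to 8.42 CPM in clutch 4 while lcat went from 20.8 to 13.2 CPM. Across the 6 pools, log2 CPM of lcat had a Pearson r of 0.88 with soat1 (Spearman rho 0.89) and of 0.90 with soat2 (rho 0.89), and soat1 had an r of 0.82 with soat2 (rho 0.89). Without the 2 pools farthest from the median of the first gene these were 0.69, 0.90 and 0.89, and after each genotype's mean was taken out they were 0.91, 0.75 and 0.71. Points of these correlations share genotype, clutch and library, so they are given as a description. Among 15011 genes compared, soat1 ranked 418 and soat2 ranked 293 in likeness to lcat, within the first 2.78% and 1.95%. In likeness to soat1, lcat ranked 678 and soat2 ranked 1182 (4.52% and 7.87%). In likeness to soat2, lcat ranked 222 and soat1 ranked 680 (1.48% and 4.53%). The 3 genes were chosen with their genotype difference known, so nothing is read from these ranks.

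The genes most like lcat across the 6 pools were led by srebf1, which encodes the sterol regulatory element binding protein that drives fatty acid synthesis genes (r = 0.997 in log2 CPM). It was at 8.89, 6.88 and 5.85 CPM in wild types and 13.9, 10.5 and 11.3 CPM in mutants, so that its pools stood in the same order as those of lcat within each genotype. The next were nr1h5, a nuclear receptor gene of the farnesoid X receptor group (0.994), ptpn6, a tyrosine phosphatase gene of blood cells (0.994), zgc:162608 (0.993) and serpinb1, a protease inhibitor gene (0.992). For soat1 they were smyd3, a lysine methyltransferase gene (0.996), LCT, named for lactase (0.995), ctps1b, a CTP synthase gene (0.992), hs6st1b, a heparan sulphate sulphotransferase gene (0.991), and lxn, a carboxypeptidase inhibitor gene (0.991). For soat2 they were csad, of taurine synthesis (0.993), gyg2, a glycogenin gene (0.993), eeig1b (0.992), fbxo34, an F-box gene (0.990), and serping1, an inhibitor of complement C1 (0.987). No gene stood on more than 1 of these lists of 5. Each gene was picked for a highest r among 15011 genes over only 6 pools. Nothing is read from its r, or from the pool order of srebf1.

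Markers of cells that could hold these enzymes were followed in the same pools, and the summed level of 3 lists, for enterocytes, macrophages and pancreatic acinar cells, was higher in the mutant pool of every clutch, as were the 3 genes. Over all tested genes, 48.2% were above 0 on the log2 fold change scale. At an unadjusted p under 0.05, 3.21% were higher and 1.99% lower, and 0.272% were called as higher with the clutch block. Every mutant pool lay above every wild-type pool for 5.14%. Counts of markers here and in the next paragraph stand beside these shares. The marker lists too were chosen with earlier results of these data known, so nothing is read from these counts. Enterocyte markers, 6 of 6 of them above 0 on the log2 fold change scale (median 0.77, 2 at an unadjusted p under 0.05 and 0 after adjustment by edgeR), had a summed level of 1302, 1095 and 887 TPM in wild types of clutches 2, 3 and 4 and of 2527, 1400 and 1640 TPM in mutants. The genotypes did not overlap, and within each genotype the pools stood in the same order as for lcat in TPM. The hepatocyte sum had this order too. Of the enterocyte sum 53.0% to 73.2% came from 1 gene, fabp1b.1. Without it the sums were 531, 345 and 407 TPM in wild types and 1064, 375 and 771 TPM in mutants, which overlapped. In clutch 3 fabp2 (264 TPM in wild types, 256 in mutants) and vil1 (47.6 and 44.6) were lower in the mutant pool in TPM. In CPM fabp2 was slightly higher there (258 in wild types, 265 in mutants) and vil1 was level (162 in each). With the clutch as a block edgeR called 1 of the 6, fabp6, for an ileal bile acid carrier and named here after its values were seen (log2 fold change 1.69, adjusted p = 0.00860). The 3 genes were also taken relative to the enterocyte sum, a measure chosen after seeing the data. The mean within-clutch log2 difference was then 0.53 for lcat (0.04, 0.71 and 0.84 in clutches 2, 3 and 4), -0.048 for soat1 (-0.38, -0.01 and 0.25) and 0.032 for soat2 (-0.84, 0.28 and 0.66). Without fabp1b.1 in the sum these means were 0.58, 0.0029 and 0.083. These ratios do not separate a share of cells from a level per cell, and the part of these cells in the differences was not tested.

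Hepatocyte markers summed to 3472, 3021 and 1743 TPM in wild types of clutches 2, 3 and 4. In mutants they summed to 3017, 2307 and 2908 TPM. The genotypes overlapped, but within each genotype the pools stood in the same order as for lcat in TPM, as with the enterocyte sum. Of these markers 7 of 9 were above 0 (median 0.14, 1 at an unadjusted p under 0.05 and 0 after adjustment by edgeR). YSL markers summed to 5497 to 9500 TPM in wild types and 6762 to 8264 TPM in mutants, with 3 of 7 above 0. Relative to the hepatocyte sum the mean log2 differences were 1.21 for lcat, 0.64 for soat1 and 0.72 for soat2, and relative to the YSL sum 1.33, 0.75 and 0.83. The largest part of the YSL sum came from 1 gene, apoa1b, at 3624 to 5571 TPM in wild types and 3958 to 5190 TPM in mutants. The gene tfa, which is on both lists, made up 28.7% to 50.9% of the hepatocyte sum and had a log2 fold change of -0.35. Without it the hepatocyte sum was 1969, 1484 and 939 TPM in wild types of clutches 2, 3 and 4 and 2152, 1414 and 1806 TPM in mutants, and relative to that sum the differences were 0.93, 0.35 and 0.43. The hepatocyte gene fabp10a, named here after its values were seen, was at 770, 510 and 401 TPM in wild types and 1079, 599 and 838 TPM in mutants (log2 fold change 0.62, SE 0.23). It had the highest log2 fold change of the 9 hepatocyte markers, and the others ran from -0.35 for tfa to 0.38 for ambp. Pancreatic acinar markers were above 0 for 12 of 12 genes but overlapped widely (229 to 1521 TPM in wild types and 252 to 2043 TPM in mutants). With the clutch as a block edgeR called 1 of the 12, the elastase gene ela2l, also named after its values were seen (log2 fold change 2.07, adjusted p = 0.0378). Macrophage markers were above 0 for 7 of 7 genes and low, at 8.78 to 14.0 TPM in wild types and 12.8 to 21.7 TPM in mutants, with within-clutch log2 differences of the sum of 0.63, 0.54 and 0.33. Those of the acinar sum were 0.43, 0.14 and 1.96. The largest part of the macrophage sum came from 1 gene, mfap4, at 3.81 to 7.12 TPM in wild types and 6.88 to 13.0 TPM in mutants. Relative to the macrophage sum the mean log2 differences were 0.76 for lcat, 0.18 for soat1 and 0.26 for soat2, and relative to the acinar sum 0.42, -0.16 and -0.078, again measures chosen after seeing the data. Interrenal steroid-producing markers were above 0 for 3 of 6 genes (24.0 to 30.0 and 23.5 to 26.8 TPM), and fast muscle markers for 1 of 9 (36808 to 39119 and 34828 to 37713 TPM). No marker was at 0 in all pools, and the part of these cell types in the differences was not tested.

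**Figure D3:**
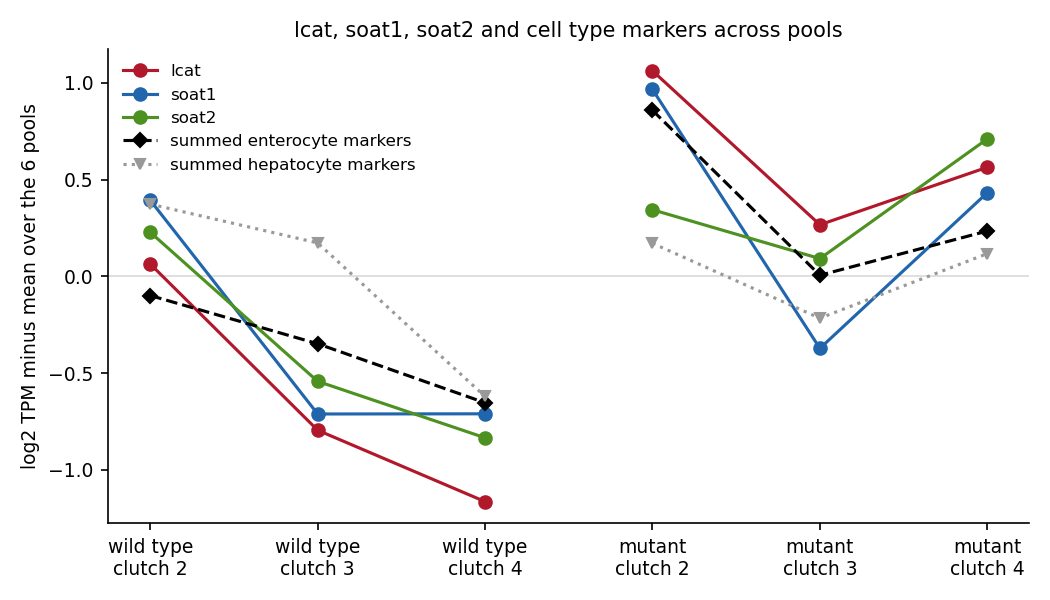
Log2 TPM minus its mean over the 6 pools (vertical axis) for lcat, soat1, soat2 and the summed enterocyte and hepatocyte markers in each pool (horizontal axis); lines join pools of a genotype only to guide the eye. The enterocyte sum (887 to 1302 TPM in wild types, 1400 to 2527 TPM in mutants, mostly fabp1b.1) did not overlap between genotypes, but without fabp1b.1 it did. The hepatocyte sum overlapped between genotypes.

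Other genes of sterol ester handling were followed in 7 lists with 76 gene symbols. Of these, 68 were in the table and 66 were tested. None passed an adjusted p of 0.05 in either direction by edgeR, while at an unadjusted p under 0.05 there were 12 higher and 7 lower in mutants, beside 3.21% and 1.99% of all tested genes. With the clutch as a block 2 were called, both higher, beside 0.272%. DESeq2 called 6, beside 0.669% of the genes it tested, and 7 with transcript length offsets, beside 0.683%. The mutant pools lay all above the wild-type pools for 10 of the 66 genes and all below for 10, beside 5.14% and 4.63% of all tested genes. The median log2 fold change was 0.13, beside -0.01 over all tested genes. These lists were chosen with earlier results of these data known. Nothing is read from their counts beside these shares, here or in the paragraphs on each list.

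The partners of Lcat in plasma came first. Of 10 apolipoprotein genes the median was 0.09, and 2 ApoA-IV genes, which encode lipoprotein surface proteins of intestine and YSL, rose with the clutch as a block. The apoa4b.3 transcript was at 1.92, 3.53 and 1.26 CPM in wild types and 26.3, 27.3 and 7.50 CPM in mutants, a log2 fold change of 3.12 (adjusted p = 0.00450 by edgeR with the block, 0.181 without it). The apoa4b.2 transcript was at 212, 274 and 94.6 CPM in wild types and 622, 815 and 250 CPM in mutants, a log2 fold change of 1.51 (adjusted p = 0.00386 by edgeR with the block, 0.761 without it). Each was higher in 3 of 3 clutches. These genes lie in a cluster of similar copies, and how reads were shared among them is uncertain. DESeq2 also called apoa4b.3 (adjusted p = 0.00128) but not apoa4b.2.

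In the list of HDL formation, remodelling and uptake, 9 of 9 genes had a log2 fold change above 0 (median 0.27), as had 48.2% of all tested genes, and 4 were higher at an unadjusted p under 0.05, beside 3.21%. The smallest p belonged to cetp, the plasma protein that exchanges the cholesterol esters made by Lcat for triacylglycerol, and abca1a, the transporter that loads cholesterol onto ApoA-I. The cetp transcript was at 13.5, 13.0 and 13.2 CPM in wild types and 21.9, 16.2 and 24.5 CPM in mutants (log2 fold change 0.66, SE 0.16, edgeR adjusted p = 0.432, DESeq2 adjusted p = 0.0384). The abca1a transcript was at 48.4, 43.0 and 75.9 CPM in wild types and 110, 90.0 and 94.1 CPM in mutants (log2 fold change 0.81, SE 0.20, edgeR adjusted p = 0.503, DESeq2 adjusted p = 0.0133). For neither gene did the genotypes overlap, though in clutch 4 those of abca1a were close. Every mutant pool lay above every wild-type pool for 3 of the 9 genes, beside 5.14% of all tested genes. Both named genes were picked for their small p, so nothing is read from this.

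Of the genes that undo sterol esters, 5 were tested, with a median of 0.51 and none at an unadjusted p under 0.05. The named ones were cel.1, for a pancreatic bile salt lipase (0.86, SE 0.77), which is also on the acinar marker list, and nceh1b.1, for a neutral cholesterol ester hydrolase (0.51, SE 0.35). Among 11 relatives of the 3 enzymes in the Lcat and MBOAT families, the median was -0.06 and 0 passed the adjusted threshold with or without the block. Of these, 3 had every mutant pool below every wild-type pool, beside 4.63% of all tested genes. At an unadjusted p under 0.05, 1, hhatlb, was lower (log2 fold change -0.34, SE 0.12, edgeR adjusted p = 0.874), beside 1.99%. The acyltransferase gene porcn, which in other animals lipidates Wnt proteins, had a log2 fold change of -0.59 (SE 0.28). The closest relative of Lcat, the lysosomal phospholipase gene pla2g15, named here after its values were seen, had -0.31 (SE 0.32).

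In the list of sterol transport, 3 of 14 genes were higher and 1 lower at an unadjusted p under 0.05 (median 0.13), beside 3.21% and 1.99% of all tested genes. None of them was called by edgeR. The lower one was npc2, for the lysosomal protein that hands over cholesterol freed from its esters, at 104, 111 and 105 CPM in wild types and 85.1, 84.8 and 80.3 CPM in mutants (log2 fold change -0.35, SE 0.09, edgeR adjusted p = 0.484). The gramd1c gene, for a carrier of sterol from the plasma membrane to the endoplasmic reticulum where the Soat enzymes lie, was at 8.38, 8.22 and 5.95 CPM in wild types and 13.4, 10.3 and 11.6 CPM in mutants (0.64, SE 0.17, edgeR adjusted p = 0.603).

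The list of sterol sensing, synthesis and conversion held genes on both sides of 0 (median -0.01 over 12 genes), with 4 having every mutant pool below every wild-type pool and 2, srebf1 and nr1h3, every mutant pool above, beside 4.63% and 5.14% of all tested genes. The srebf2 gene, which encodes the regulator of cholesterol synthesis genes, was at 57.0, 55.1 and 50.6 CPM in wild types and 37.9, 33.8 and 36.1 CPM in mutants. Its log2 fold change was -0.59 (SE 0.10, edgeR adjusted p = 0.171, DESeq2 adjusted p = 4.03e-04). The sqlea gene, for squalene epoxidase in cholesterol synthesis, was at 13.9, 18.6 and 8.85 CPM in wild types and 5.72, 1.90 and 3.50 CPM in mutants. Its log2 fold change was -1.90 (SE 0.40, edgeR adjusted p = 0.341, DESeq2 adjusted p = 6.58e-05). The most alike gene of lcat, srebf1, is on this list too and had 0.72, so the values of the paralogs srebf1 and srebf2 lay on opposite sides of 0.

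Of 5 genes that pack sterol esters into lipoproteins and droplets (median -0.11), mttp, which loads lipid onto ApoB, was at 150, 128 and 102 CPM in wild types and 225, 155 and 193 CPM in mutants (log2 fold change 0.59, SE 0.17, edgeR adjusted p = 0.702). The ApoB gene apobb.2 was at 25.6, 25.3 and 19.6 CPM in wild types and 4.79, 12.9 and 12.8 CPM in mutants (log2 fold change -1.21, SE 0.33, edgeR adjusted p = 0.629, DESeq2 adjusted p = 0.0148).

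**Figure D4:**
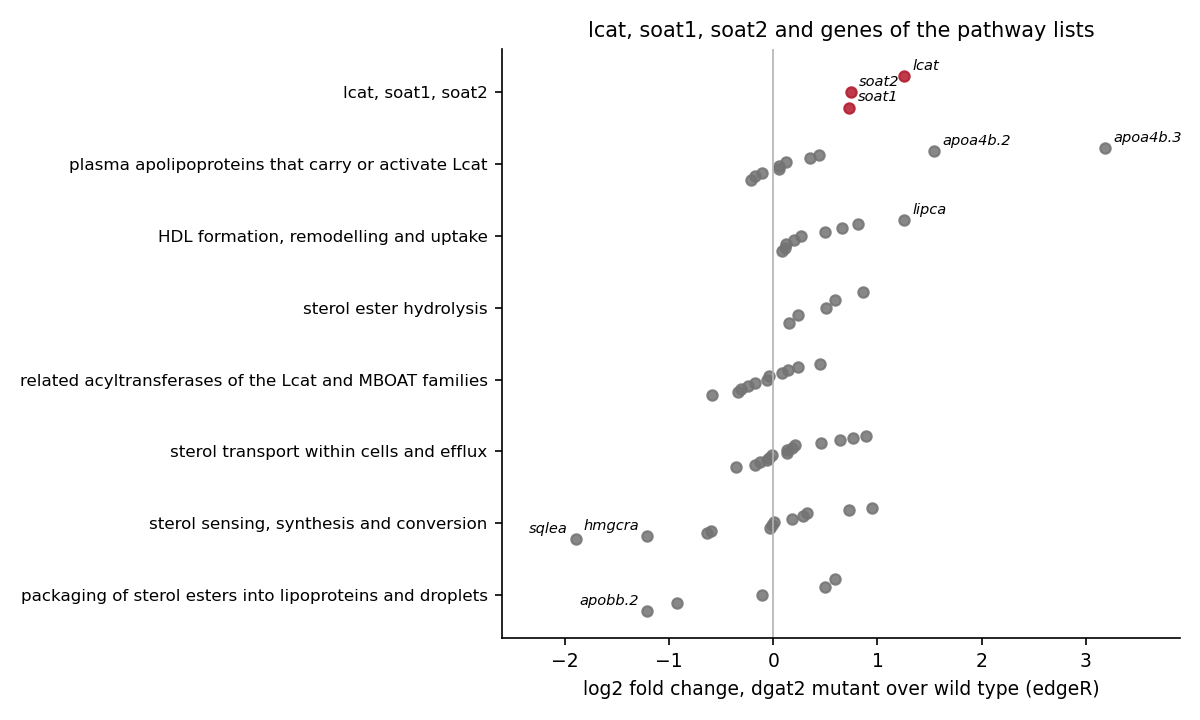
Log2 fold change of dgat2 mutants over wild types by edgeR (horizontal axis) for lcat, soat1 and soat2 (red) and for the 66 tested genes of the pathway lists (grey), 1 point per gene, with list genes beyond 1 in either direction named. All 9 HDL genes lie above 0, as do 48.2% of all tested genes, while the sterol sensing and synthesis list runs from sqlea at -1.90 to values above 0.

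Features of the transcripts that the choice of genes did not use were also compared. From the ratio of count to TPM, the relative effective transcript length of lcat and of soat1 was constant across pools (highest over lowest 1.01), whereas that of soat2 varied 1.15-fold, with wild types at 1.19, 1.12 and 1.03 and mutants at 1.14, 1.05 and 1.15, which overlapped. In the RefSeq gene order of assembly GRCz12tu, none of the 3 genes was on the chromosome of dgat2, and no annotated gene overlapped any of them. Their measured neighbours within 2 places had log2 fold changes between -0.31, that of pla2g15 beside lcat, and 0.07, that of fnbp1l near soat1.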

How the data were processed

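Expression was measured by poly(A)-selected RNA sequencing without strand marking. Per the study's methods and the submitters' processing notes, the authors aligned reads to GRCz11 (STAR 2.7.9a) and estimated abundance with Salmon 1.10.1. The authors deposited estimated counts per gene and TPM, which sum to 1000000 per sample. Estimated counts were rounded, genes with low counts filtered (filterByExpr), scaled by TMM, and fitted by genotype with edgeR 4.0.16 in R 4.3.3 (quasi-likelihood, Benjamini-Hochberg adjustment over 22762 genes). The SE printed with an edgeR log2 fold change is its absolute value divided by the square root of the quasi-likelihood F statistic. For the 3 genes it is given as a description. CPM used TMM-scaled library sizes. TPM was compared on the log2(TPM + 0.1) scale by exact sign-flip permutation (scipy 1.17.1). Alternatives were DESeq2 1.42.0, limma 3.58.1 on TPM, no filter, a clutch block and leaving out each pool. Scripts were tested on simulated counts.

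The clutch in the labels pairs the pools. Deviations from genotype means correlated at 0.419, 0.378 and 0.200 for pools of the same clutch and at -0.380 to 0.0680 for others. Such deviations add up to 0 within a genotype, which ties the values of other pairs to those of the same clutch. They are given as a description and do not test the pairing.

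The 3 genes and all lists were chosen with earlier results of these data known. Named list genes were those called with or without the block, and the 2 of each list with the smallest p. The 5 most alike genes were taken among those with a mean of at least 1 CPM. Names were matched by symbol, synonym or identifier. Depth was 45958694 to 59166585 counts per library. Gene order, chromosome and overlap of genes were read from the RefSeq table of GRCz12tu, another build than that of the files, and none of its coordinates is printed.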

Additional observations from a re-analysis of the deposited data

How the results depend on the processing

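The log2 fold changes of lcat, soat1 and soat2 kept their direction in edgeR without the filter, with the replicate block, in DESeq2 and limma, and with each pool left out. Leaving out 1 pool gave 0.99 to 1.59 for lcat, 0.34 to 1.09 for soat1 and 0.54 to 1.08 for soat2. The largest other shift was that of soat1 to 0.47 with limma on log2(TPM + 1), a pseudocount near its level. Relative to summed markers, chosen after seeing the data, the values for lcat, soat1 and soat2 were 0.53, -0.048 and 0.032 (enterocyte), 0.58, 0.0029 and 0.083 (enterocyte without fabp1b.1), 0.76, 0.18 and 0.26 (macrophage), 0.42, -0.16 and -0.078 (pancreatic acinar) and 0.93, 0.35 and 0.43 (hepatocyte without tfa), so soat1 changed sign with the enterocyte and acinar sums and soat2 with the acinar sum. The excess of lcat was 1.68 to 1.90 over soat1 and 1.48 to 1.69 over soat2 without 1 pool, and lost its call because 5 pools cannot give an exact permutation p under 0.0625. Over the 3 clutch means, also added after seeing the data, these differences were 1.80 and 1.62 with an exact permutation p of 0.25, the smallest possible. The difference of soat1 minus soat2 was -0.30 to -0.09 without 1 pool. Genes called numbered 3 by edgeR, 77 with the replicate block, 9 without the filter, 160 by DESeq2, 167 by DESeq2 with length offsets, 6 by limma under either pseudocount, and 0 to 4 without 1 pool (0 without the mutant pool of clutch 2 or 4 or the wild-type pool of clutch 3 or 4, 1 without the mutant pool of clutch 3). Listed pathway genes called numbered 0, 2 with the replicate block (apoa4b.2 and apoa4b.3), 6 by DESeq2 (apoa4b.3, abca1a, cetp, srebf2, sqlea and apobb.2), 7 with length offsets, which added hmgcra (log2 fold change -1.21, adjusted p = 0.0194, named after its values were seen), and 0 without 1 pool. The cause of these shifts in counts was not tested. With 3 pools per genotype and 142 to 1100 estimated counts per pool behind each of the 3 genes, a small difference between soat1 and soat2 is not detectable here.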
